A study of Mus musculus with 4 samples.

Results

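The enzymes of de novo fatty acid synthesis were described across 4 RNA libraries from the lower eyelid of the mouse. They were chosen by symbol: Slc25a1, Acly, Acss2, Acaca, Acacb, Fasn, Me1, Thrsp and Mlxipl, which are 9 of 15816 genes that 1 or more libraries listed. De novo synthesis builds fatty acids in the cytosol from acetyl-CoA. Citrate leaves the mitochondrion and is split to acetyl-CoA, acetyl-CoA is carboxylated to malonyl-CoA, and fatty acid synthase joins malonyl units to a saturated chain with NADPH as the reductant. In the lid the meibomian glands, holocrine glands whose cells (meibocytes) fill with lipid and burst, make the lipid layer of the tear film, and their wax esters and cholesteryl esters carry fatty acids from this route after elongation and desaturation.

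The libraries came from wild-type mice of the inbred strain C57BL/6, with no allele or treatment named in the labels: 1 library from males and 1 from females at 3 months (young), and 1 from males and 1 from females at 2 years (old). How many animals a library holds is not stated in the labels. Below, young or old males or females means the library of that group. A lid holds skin, conjunctiva, muscle and dermis beside the glands. Levels are RPKM, reads scaled by gene length and by the mapped total of the library, so levels of different genes can be compared per length. The tables list genes above 0.125 RPKM. With 1 library per group there was no replicate to set a difference against, and differences are given on the log2(RPKM + 1) scale, which understates those of low genes. The libraries held 3.16 to 3.91 gigabases of coverage, the old female the least. The old female library stood apart, with a Pearson's r across genes of 0.940 to 0.968 with the other 3, which had 0.985 to 0.988 among themselves. The comparisons of the young libraries with each other and of the males by age do not use it.

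Of the 9 genes, 7 were listed in every library with a mean of at least 1 RPKM and were analysed among 12073 genes. Thrsp and Mlxipl lay below that mean. All 7 enzymes and carriers had their lowest level in the young female library and their highest in the old female, with the old male below the young male in between. This order of the libraries, young female, old male, young male, old female, was shared by 7 of 7, and by 17.7% of all analysed genes. Summed over the 7, the level was 248.1 RPKM in young females, 341.3 in old males, 427.3 in young males and 564.7 in old females. In whole tissue, a different number of cells of a type and a different amount of RNA per cell cannot be told apart.

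**Figure D1:**
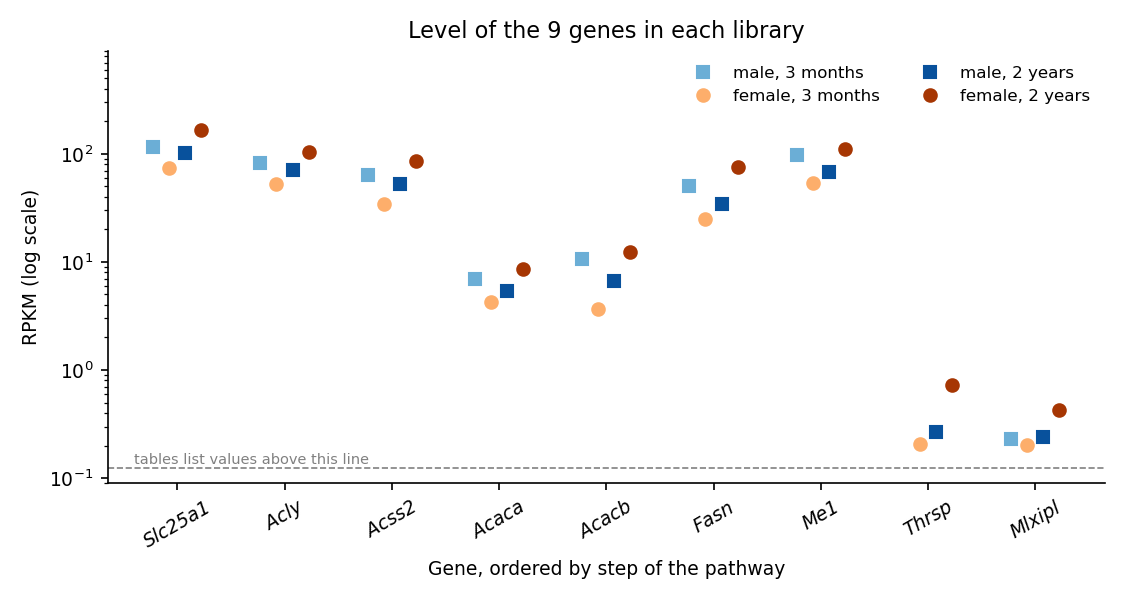
Level of the 9 genes (RPKM, log axis) with 1 point per library; squares are male and circles female libraries, pale at 3 months and dark at 2 years. Slc25a1 is the highest gene in each library (74.6 to 168.1 RPKM), both carboxylases lie at 3.68 to 12.3 RPKM, and Thrsp, absent from the young male table, and Mlxipl lie below 1 RPKM.

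The citrate carrier was the most abundant of the 9 genes. Slc25a1, the citrate carrier of the inner mitochondrial membrane (chromosome 16, 17925211 to 17928219, mm10), had 115.5 RPKM in young males, 74.6 in young females, 101.9 in old males and 168.1 in old females. It ranked 546, 944, 661 and 342 among the genes listed, in the same order. The old female library was above the young female by 1.16 on the log2 scale, and the difference in males was -0.18.

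The transcripts of both enzymes of cytosolic acetyl-CoA supply were abundant. Acly, ATP citrate lyase, which splits citrate to acetyl-CoA (chromosome 11, 100476352 to 100528000), had 82.8 RPKM in young males, 52.7 in young females, 71.6 in old males and 104.8 in old females. Acss2, the synthetase that makes acetyl-CoA from acetate (chromosome 2, 155518043 to 155562743), had 63.1, 34.2, 52.9 and 85.4 RPKM in the same order. The age differences were 0.98 in females and -0.21 in males for Acly and 1.30 and -0.25 for Acss2. The level of Acly over Acss2 was 1.54 in young females and 1.23 in old females, and 1.31 and 1.35 in young and old males. Acss2 shares 3.89% of its annotated exon bases with Gss on the opposite strand, and no source used here gives the strand setting of the counting; Gss had 27.4 to 35.4 RPKM, lowest in the old female library.

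Malonyl-CoA synthesis had the lowest levels of the enzymes, and its isoforms differed in the size of their age differences. Acaca encodes acetyl-CoA carboxylase 1, the cytosolic isoform that feeds fatty acid synthase, and Acacb carboxylase 2, the isoform at the outer mitochondrial membrane whose malonyl-CoA limits fatty acid oxidation. Acaca (chromosome 11, 84195438 to 84401651) had 6.92 RPKM in young males, 4.24 in young females, 5.40 in old males and 8.66 in old females. Acacb (chromosome 5, 114165518 to 114250758) had 10.7, 3.68, 6.70 and 12.3 RPKM in the same order. Acacb was above Acaca in 3 libraries, at a ratio of levels of 1.54 in young males, 1.24 in old males and 1.42 in old females, and below it in young females, at 0.867. The age difference was 0.88 in females and -0.31 in males for Acaca, and 1.51 and -0.60 for Acacb. Acacb is also the carboxylase of muscle, and the 10 skeletal muscle markers summed to 344.1 RPKM in young males and 317.6 in young females, and to 915.1 in old males and 1570 in old females; their part in the level of Acacb was not tested.

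Fasn had the largest age difference in females on the log2(RPKM + 1) scale; with a pseudocount of 0.1 Acacb was above it (1.71 against 1.58). Fasn encodes fatty acid synthase, the multifunctional enzyme that makes palmitate (chromosome 11, 120805958 to 120824547). It had 50.9 RPKM in young males, 25.0 in young females, 34.7 in old males and 74.8 in old females. The difference was 1.55 in females and -0.54 in males. The male minus female difference was 1.0004 at 3 months and -1.09 at 2 years. Per unit of Acaca, Fasn had 5.89 times the level in young females, 6.42 in old males, 7.36 in young males and 8.64 in old females. Scd1, the desaturase that acts on the products of synthesis, had 59.8 to 87.3 times the level of Fasn.

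Malic enzyme, a source of NADPH, had the same order of libraries. Me1, which releases NADPH in the cytosol while turning malate to pyruvate (chromosome 9, 86581363 to 86695914), had 97.4 RPKM in young males, 53.7 in young females, 68.1 in old males and 110.7 in old females. Its age difference was 1.03 in females and -0.51 in males. It ranked second of the 7 in every library except the old male, where Acly was above it.

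The control genes were near the limit of listing. Thrsp encodes Spot 14, a nuclear and cytosolic protein that is induced by thyroid hormone and carbohydrate in liver and favours lipogenesis. It was not listed in the young male library and had 0.205 RPKM in young females, 0.265 in old males and 0.734 in old females, resting on 889, 1200 and 2687 bases of coverage. The authors' deposited table of genes higher in the old male library, which also holds values under the listing limit, gives 0.0453 RPKM for Thrsp in the young male. Mlxipl encodes ChREBP, the carbohydrate-responsive factor of liver and fat that binds promoters of lipogenic genes. It had 0.232 RPKM in young males, 0.202 in young females, 0.238 in old males and 0.423 in old females. Both genes were highest in the old female library, and with so little coverage neither was read further. Mlxip, a paralog of Mlxipl, had 5.20 to 6.46 RPKM and Mlx, the partner both bind, 20.9 to 26.8 RPKM.

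Promoter sequence from RefSeq (build GRCm38.p6, the assembly of mm10) was read for the 9 genes, since 7 of them share an order of libraries. In 8 of the 9 genes a RefSeq start site fell exactly on the edge of the deposited gene; for Thrsp it did not. The gene models of Acaca and Acacb begin downstream of the GENCODE vM21 gene starts. The windows of both genes may thus lie inside the gene and need not be promoters, and promoters further upstream lie outside them. The 250 bases before the start are given for the most abundant member and for those with the largest age differences: Slc25a1 (chr16:17928220-17928469, minus strand), Acacb (chr5:114165268-114165517, plus strand) and Fasn (chr11:120824548-120824797, minus strand). Capitals mark CCAAT, the motif of NF-Y, and CACGTG, an E-box bound by factors such as USF and ChREBP, on either strand.
Slc25a1: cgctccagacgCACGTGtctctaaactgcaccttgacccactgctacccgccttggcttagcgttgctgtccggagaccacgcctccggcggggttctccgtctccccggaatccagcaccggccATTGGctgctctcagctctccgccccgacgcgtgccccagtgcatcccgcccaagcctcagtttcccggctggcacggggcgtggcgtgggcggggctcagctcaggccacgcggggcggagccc
Acacb: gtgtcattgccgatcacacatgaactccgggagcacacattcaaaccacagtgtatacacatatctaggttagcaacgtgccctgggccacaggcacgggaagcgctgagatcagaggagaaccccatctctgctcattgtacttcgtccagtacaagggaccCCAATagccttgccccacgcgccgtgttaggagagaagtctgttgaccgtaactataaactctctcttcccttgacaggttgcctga
Fasn: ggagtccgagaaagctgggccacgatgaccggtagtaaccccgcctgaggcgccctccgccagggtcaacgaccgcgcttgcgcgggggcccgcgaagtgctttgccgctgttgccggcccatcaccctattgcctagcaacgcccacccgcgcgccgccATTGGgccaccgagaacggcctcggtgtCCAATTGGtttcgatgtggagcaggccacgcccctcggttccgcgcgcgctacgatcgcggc

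The Fasn window held CCAAT 3 times, with the first base at -90 and -59 on the opposite strand and at -62 on the strand of the gene, the last 2 overlapping. The Slc25a1 window held CACGTG at -239 and CCAAT on the opposite strand at -125, and the Acacb window CCAAT at -87. Over the 7 analysed genes CCAAT was found in 4 (33.8% of 32851 RefSeq promoter windows of the same length), CACGTG in 1 (6.02%) and GGGCGG, the GC box, in 4 (32.7%). TCACNCCAC, a form of the sterol regulatory element, was in 0 of the 7 (1.05% of all windows) and in the Mlxipl window at -136. The counts use the windows at the deposited gene edges, those of Acaca and Acacb included, which need not be promoters. Other RefSeq start sites of Mlxipl and Me1 gave further windows. That of Mlxipl held CACGTG at -98 and CCAAT at -173 but no TCACNCCAC, and that of Me1 held CCAAT at -208. A match describes letters in these windows and is not a measured site.

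In females, 5 of the 7 genes were at least 2-fold higher at 2 years and none was lower, against 5.30% of all analysed genes higher and 3.31% lower; all 7 were higher at any size, as were 59.1% of all genes. These were Fasn, Acacb, Acss2, Slc25a1 and Me1, and Acly (0.98) and Acaca (0.88) lay just under that size. The median of the 7 was 1.16, against 0.08 over all genes. Median scaling of the libraries left 4 of the 7 above 2-fold, and a pseudocount of 5 left 3. With a pseudocount of 0.1, 6 of the 7 passed, Acaca (1.01) included. In males, none of the 7 was 2-fold apart, against 0.207% of all genes lower and 0.795% higher. All 7 were lower in the old male library, from -0.60 (Acacb) to -0.18 (Slc25a1), with a median of -0.31; 53.0% of all genes were lower at any size. The sign of the age difference was thus opposite in the sexes for 7 of 7 genes, higher in females and lower in males, which held for 36.9% of all genes.

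**Figure D2:**
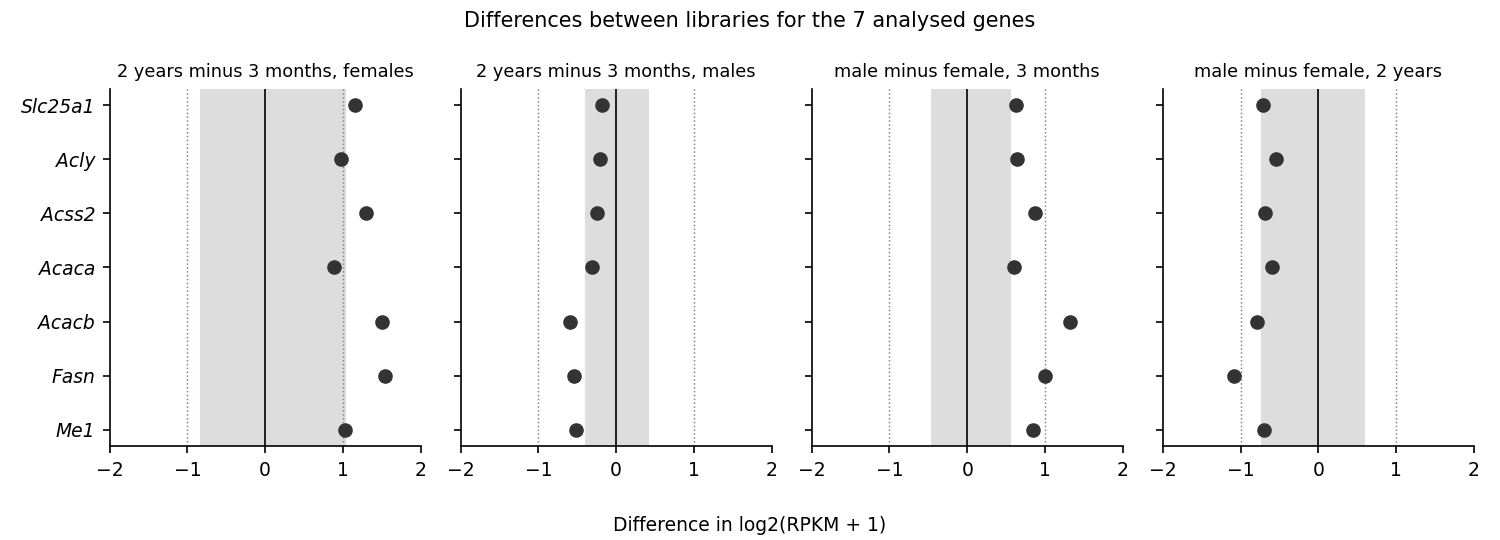
Differences between libraries in log2(RPKM + 1) for the 7 analysed genes, 1 panel per comparison; the grey band spans percentiles 5 to 95 of all 12073 genes and dotted lines mark 2-fold. All points lie to the right of 0 for age in females and for males against females at 3 months, and to the left in both other panels.

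Between the sexes, the direction of the difference turned with age. At 3 months all 7 genes were higher in the male library, from 0.60 (Acaca) to 1.32 (Acacb), with a median of 0.85, as were 52.5% of all genes at any size. Acacb and Fasn were at least 2-fold higher, 2 of 7 against 0.928% of all genes. Fasn lay on the threshold, and under median scaling and quantile normalization only 1 of the 7 passed. At 2 years all 7 were lower in the male library, from -1.09 (Fasn) to -0.54 (Acly), with a median of -0.69, as were 60.7% of all genes. Fasn was at least 2-fold lower, 1 of 7 against 1.76% of all genes, and under median scaling none was. The sex and age comparisons share libraries, so the 4 sets of values are not independent of each other.

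Effects averaged over the other factor did not pass the test for any of the 7 genes. In the limma fit over all 12073 genes, with age and sex as terms, the averaged age differences ranged from 0.26 ± 0.45 for Me1 to 0.52 ± 0.45 for Acss2 (SE, 2 old against 2 young libraries). The averaged sex differences ranged from -0.05 ± 0.42 for Slc25a1 to 0.27 ± 0.55 for Acacb. None of the 7 had an unadjusted p under 0.05 (lowest 0.306 for age and 0.656 for sex, limma), and after Benjamini-Hochberg adjustment 0.00% of all genes passed for either effect. Before adjustment 353 genes had a p under 0.05 for age and 63 for sex (limma). The fit has 1 residual degree of freedom, namely how far females and males differ in their age effect, and for these genes that was 1.18 (Acly) to 2.11 (Acacb) on the log2 scale.

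The markers of the meibocyte differed in nearly the same order of libraries. All 17 markers passed 2-fold higher in old against young females, against 5.30% of all analysed genes, and the marker median was 1.502. Their summed level was 13691 RPKM in young males, 6085 in young females, 10105 in old males and 18811 in old females. Scd1 and other genes of lipid synthesis are among the 17, so the list does not measure gland content alone. Of the 17, 15 had the same order of libraries as the 7 synthesis genes, against 17.7% of all analysed genes. The male median of the markers was -0.44. Fasn differed from the meibocyte median by 0.04 in females and by -0.11 in males, and Acacb by 0.01 and -0.16. The other 5 had smaller age differences than the marker median in females, by -0.21 (Acss2) to -0.62 (Acaca). The part of gland content in the levels of the synthesis genes was not tested.

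**Figure D3:**
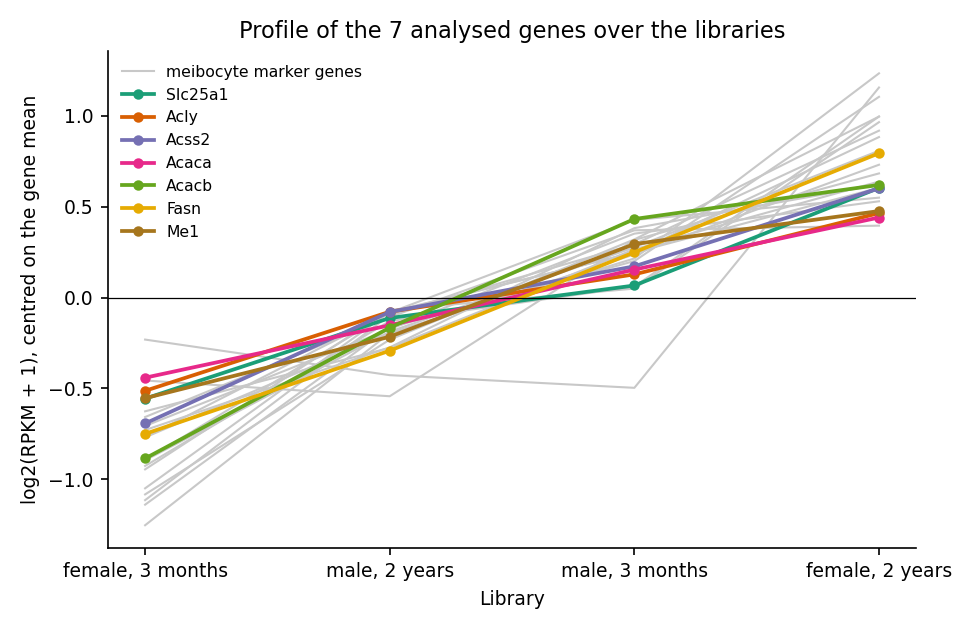
Centred log2(RPKM + 1) of the 7 analysed genes (coloured) and of 17 meibocyte markers (grey) in the 4 libraries, set in the order shared by the 7 genes. The coloured lines climb at each step, as do 15 of the 17 grey lines.

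Markers of other cell types also differed between libraries. The 12 markers of adipocytes, cells that also run this pathway, summed to 122.3 RPKM in young males, 93.5 in young females, 101.9 in old males and 176.1 in old females. That sum had the same order of libraries as the synthesis genes. Fabp4, Pnpla2 and Plin4 made up most of it in every library. Of the 6 adipocyte markers analysed only 1, Pnpla2, had the order by itself, against 17.7% of all analysed genes. In old females 5 of the 6 were higher, Car3 (2.81) and Cfd (2.71) most, against 59.1% of all analysed genes. Lipe was lower (-0.45), with 6.11 RPKM in young and 4.22 in old females. Adipoq, the adipokine gene that defines adipocytes, was not listed in young females and had 0.153 RPKM in young males, 0.223 in old males and 3.45 in old females. Lep and Plin1 were listed in the old female library alone (0.305 and 0.788 RPKM), and Ucp1 in none. The 6 basal epidermal markers summed to 14277 RPKM in young and 5668 in old females, against 10613 and 12233 in young and old males. The 7 suprabasal markers summed to 2011 and 477.4 RPKM in females and to 1951 and 1393 in males. In old females 5 of these 7 were at least 2-fold lower, against 3.31% of all analysed genes. Krt1 had 490.1 RPKM in young and 6.46 in old females, and Krt10 732.4 and 17.5. Krtdap, at 479.4 and 424.2 RPKM, made up most of the old female sum. The 7 conjunctival markers summed to 7477 and 1704 in females and to 4846 and 6725 in males. The keratin genes Krt4 and Krt13 make up most of the conjunctival sum in young females; in old females 3 of the 7 were at least 2-fold lower, and Tff1 (1.24) and Spdef (1.14) were at least 2-fold higher. The 4 markers of lacrimal and other exocrine glands summed to 873.8 and 679.1 in females and to 562.6 and 1088 in males, with Aqp5 lower (-1.87) and Pigr higher (1.10) in old females. The part of these cell types in the result was not tested.

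Other lists that supply carbon and NADPH had smaller median age differences in females than the 7 genes, with single genes in the range of Acly and Acaca. Of 8 analysed NADPH enzymes none was 2-fold apart in either sex (medians 0.27 in females and -0.11 in males). Over all analysed genes 5.30% were 2-fold higher and 3.31% lower in females, and 0.795% and 0.207% in males. G6pdx, which opens the pentose phosphate pathway, had 96.4 RPKM in young and 128.2 in old females, with an age difference of 0.41 against 1.03 for Me1. Nadk, the kinase that makes NADP, had the largest difference of the list (0.97 in females and -0.26 in males) and Idh1, cytosolic isocitrate dehydrogenase, differed by 0.34 and 0.25. Of 12 genes of pyruvate and citrate supply none was 2-fold apart (medians 0.35 and -0.01). They were led by Dlat, a subunit of pyruvate dehydrogenase (0.98 and -0.15), Pcx, pyruvate carboxylase (0.80 and -0.40), and Mdh2, mitochondrial malate dehydrogenase (0.60 and 0.02). Of 16 genes of glucose uptake and glycolysis (median 0.49, and 0.04 in males) all were higher in old females, against 59.1% of all genes. Of the 16, 1 was at least 2-fold higher, against 5.30% of all genes. That gene was Pfkm, the muscle phosphofructokinase (1.02 and 0.56), followed by Hk2, hexokinase 2 (0.90 and -0.14), and Slc2a1, the glucose carrier GLUT1 (0.84 and -0.33). Gapdh was listed at only 8.48 to 11.9 RPKM. It has near-identical copies in the genome, and no source used here says how reads that match several places were counted.

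Genes that act on the carboxylases and on malonyl-CoA were mixed. Of 11 analysed genes of carboxylase and malonyl-CoA control 1 passed 2-fold higher in old females, against 5.30% of all analysed genes. In males 0 of the 11 were apart, against 0.795% of all genes higher and 0.207% lower. The list medians were 0.11 in females and 0.08 in males. Hlcs, the ligase that attaches biotin to the carboxylases, had 9.26 RPKM in young males, 5.93 in young females, 7.71 in old males and 13.5 in old females (1.07 and -0.24). Mlycd, which degrades malonyl-CoA, differed by 0.71 and -0.29, and Prkab2, a subunit of AMP-activated kinase, by 0.52 and 0.08. At any size 7 of the 11 were higher in old females and 4 were lower, while 59.1% of all genes were higher. Among the 4 were the kinase subunits Prkaa1 (-0.49 and 0.08) and Prkab1 (-0.44 and 0.27), named after their values were seen. Prkab1 had 29.8 to 40.7 RPKM and Prkab2 2.07 to 3.42. Mid1ip1, the paralog of Thrsp that promotes polymerization of carboxylase 1, was abundant where Thrsp was not, at 106.7 RPKM in young males and 92.0 to 94.96 in the other 3 libraries, and differed by 0.04 and -0.19 with age.

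Of 15 transcriptional control genes 1 passed 2-fold higher in old females, against 5.30% of all analysed genes. In males 0 of the 15 were apart, against 0.795% of all genes higher and 0.207% lower. The list medians were 0.10 in females and -0.03 in males. Srebf1, which encodes SREBP-1, the factor that drives the genes of this pathway, had 43.0 RPKM in young males, 30.3 in young females, 34.6 in old males and 53.9 in old females. It had the same order of libraries as the enzymes, with age differences of 0.81 and -0.30. That order was found in 3 of the 15 control genes, Srebf1 included, and in 17.7% of all analysed genes. Scap, which escorts SREBP to the Golgi, differed by 0.59 and -0.29. Nr1h3, the oxysterol receptor LXR alpha, was the 1 gene past 2-fold (1.15 and 0.11), with 0.715 RPKM in young and 2.81 in old females. Mlx differed by 0.27 and 0.14.

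Mitochondrial fatty acid synthesis, a separate pathway with its own enzymes, had no gene 2-fold apart among 7 analysed (medians 0.39 and -0.06). Ndufab1, the mitochondrial acyl carrier protein, differed by 0.88 and -0.34, Acsf3, a malonyl-CoA synthetase, by 0.50 and -0.34, and Mecr, the enoyl reductase, by 0.40 and 0.04. Of 10 analysed genes that activate and bind fatty acids 3 passed 2-fold higher in old females and 1 passed 2-fold lower. The shares over all analysed genes were 5.30% and 3.31%. In males 0 of the 10 were apart, against 0.795% of all genes higher and 0.207% lower. The list medians were 0.40 in females and -0.29 in males. Fabp5, the epidermal fatty acid binding protein, differed by 1.46 and -0.28, and the acyl-CoA synthetases Acsl4 and Acsl5 by 1.38 and -0.36 and by 1.26 and -0.29. The lower one was Acsl1, with 104.9 RPKM in young and 47.0 in old females, named after its values were seen.

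**Figure D4:**
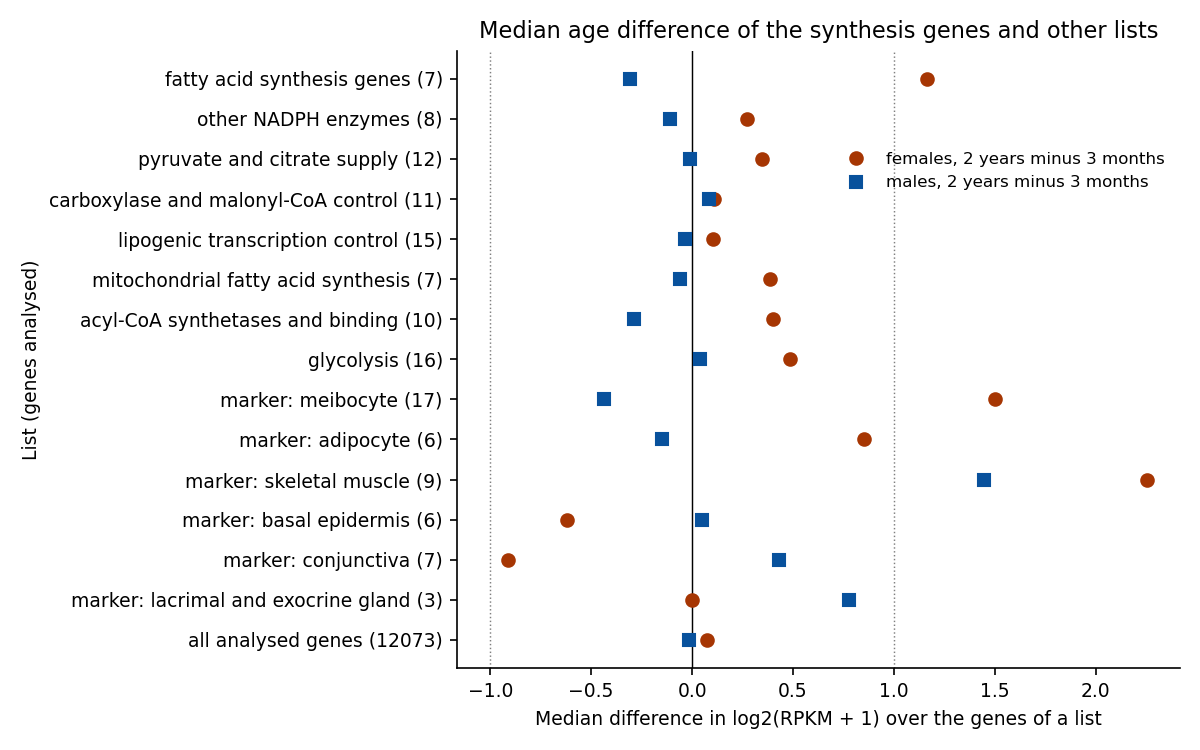
Median age difference in log2(RPKM + 1) for the 7 synthesis genes, the other lists and all analysed genes; circles are females, squares males, and the number analysed is in brackets. The synthesis genes lie at 1.16 and -0.31 and the meibocyte markers at 1.502 and -0.44; the suprabasal markers, at -5.31 in females, are not drawn.

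The genes with profiles closest to Fasn were sought among all analysed genes outside the set, by the root mean square difference of centred log2 values over the 4 libraries. They were Cd1d1 (0.02), a lipid-presenting molecule, Pitx1 (0.03), a homeodomain factor, Reep6 (0.03), Angptl4 (0.04), an inhibitor of lipoprotein lipase, and Echdc1 (0.04), which removes ethylmalonyl-CoA, a side product of acetyl-CoA carboxylase. The median distance over all genes was 0.56, and the synthesis genes themselves lay 0.15 (Acss2) to 0.25 (Acaca) from Fasn. Cd1d1 had 2.83 RPKM in young and 10.01 in old females, against 6.78 and 4.30 in males. Among the 5 closest to the median profile of the 7 were Pex16 (0.02), a peroxisome biogenesis factor, Hsd17b4 (0.03), an enzyme of peroxisomal fatty acid oxidation, and Rnf5 (0.03), a ubiquitin ligase. Hsd17b4 had 64.4 and 144.3 RPKM in young and old females and 103.1 and 83.4 in young and old males. These genes were picked for likeness over only 4 libraries, so their values are a description.

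Of the 9 genes 5 stand in the authors' deposited table of genes higher in the old female library, which was made per its file name with Cyber-T and holds 1983 genes. For scale, 15816 genes were listed in 1 or more libraries. That authors' deposited table gives Acacb a fold of 3.34, Fasn 3.00, Thrsp 3.58, Mlxipl 2.09 and Acaca 2.04, all from RPKM without a pseudocount. The authors' deposited table for the old male library gives Thrsp a fold of 5.85, the 1 member there. Thrsp and Mlxipl lay below 1 RPKM, so their folds in both sexes rest on very little coverage. Neither of the authors' deposited tables of lower genes holds a member. Slc25a1, Acss2 and Me1 are in none of the authors' deposited tables, although their RPKM in the old female library was 2.25, 2.50 and 2.06 times that in the young female.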

How the data were processed

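RNA of whole lower eyelid was sequenced on an Illumina HiSeq, per the labels. TopHat, Cufflinks and mm10 are named in the submitters' processing notes, without roles; no source used here gives the counting rule or strand setting. The authors deposited RPKM values scaled for gene length and library total. A second column, per the file headers a raw count, sums to 3.16 to 3.91 gigabases per library if read as base coverage, as was done here; this signal was used only for depth, since read depth is unknown and no count test was run. The folds, p-values and Bonferroni values deposited by the authors come from their own tables.

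The members and lists were chosen with earlier results of these data known. Genes listed in all 4 tables with a mean of at least 1 RPKM were analysed, after 2 symbols standing on more than 1 row were left out. A gene is called apart at 2-fold on log2(RPKM + 1). Averaged effects used limma 3.58.1 in R 4.3.3 with a variance trend on intensity and adjusted p-values (Benjamini-Hochberg) called under 0.05. The fit was also run on simulated data with equal age effects in both sexes. The 7 genes differ from that setting, so the run does not gauge the fit for them. Alternatives were the pseudocount, the filter, the scaling, the fold and leaving out each library. All 9 members are named; of each of the 7 other lists the 3 genes with the largest female age difference, with Srebf1, Mlx and Mid1ip1 in any case; and the 5 genes closest to Fasn and to the median profile, of which 2 are not reported here. Promoter sequences are from RefSeq.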

Additional observations from a re-analysis of the deposited data

Results flagged for a closer look

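The age difference ran in opposite directions in the sexes, higher at 2 years in females and lower in males, for each gene given a value in this paragraph. This held for 36.9% of all analysed genes. With 1 library per group that opposition was not tested. Idh1, Mdh2, Prkab2, Nr1h3, Mlx, Mecr and Pfkm, also named above, were higher at 2 years in both sexes and are given no value here. The value is the female log2 difference minus the male one. It was 2.11 for Acacb, 2.09 for Fasn, 1.55 for Acss2, 1.54 for Me1, 1.34 for Slc25a1, 1.19 for Acaca and 1.18 for Acly. Among the genes around the pathway it was 1.74 for Fabp5, 1.74 for Acsl4, 1.55 for Acsl5, 1.31 for Hlcs, 1.23 for Nadk, 1.23 for Ndufab1, 1.20 for Pcx, 1.17 for Slc2a1, 1.13 for Dlat, 1.11 for Srebf1, 1.04 for Hk2, 1.01 for Mlycd, 0.88 for Scap, 0.84 for Acsf3, 0.54 for G6pdx and 0.24 for Mid1ip1. Among the genes picked for likeness, for which it follows from the choice, it was 2.08 for Angptl4, 2.08 for Cd1d1, 2.03 for Echdc1, 2.03 for Reep6, 1.97 for Pitx1, 1.55 for Pex16, 1.499 for Rnf5 and 1.45 for Hsd17b4.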

How the results depend on the processing

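Each of the 7 synthesis genes kept the sign of its difference in all 4 comparisons under the 4 alternatives of pseudocount and scaling; the other 3, of filter and fold, leave these values as they are. Counts past the threshold moved. With a pseudocount of 5, 3 synthesis genes were apart by age in females and 0 by sex at 3 months, and all genes apart were 557 and 50 by age in females and males and 75 and 232 by sex at 3 months and 2 years. With 0.1 they were 245 by age in males and 276 and 699 by sex. Median scaling left 1 synthesis gene apart by sex at 3 months and 0 at 2 years, and quantile normalization 1 at 3 months. At 1.5-fold, 1 synthesis gene was apart by age in males, 7 by sex at 3 months and 6 at 2 years, and all genes apart were 2555, 492, 826 and 1619. Leaving out 1 library took a limma fit with the tested factor as its only term and 1 arm of 1 library, assumed to vary like the other, so its counts are not set against those of all 4 libraries. In it 0 synthesis genes passed each time; over all genes 0 to 166 passed for age (166 without the old male) and 0 to 18 for sex (18 without the young female). No paired analysis was possible because each group holds 1 library. Thrsp and Mlxipl rest on too little coverage to rank.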

Other observations

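The authors' deposited table of genes higher in the old female library thins out at high levels, where most of the synthesis genes lie. Of genes at least 2-fold higher by RPKM in that library, the authors' deposited table holds 735 of 735 at 1 to 10 RPKM and 251 of 251 at 10 to 50 RPKM, where Acaca and Acacb lie in the first and second of these ranges. At 50 to 100 RPKM it holds 41 of 55, Fasn among them and Acss2 not. From 100 RPKM it holds 2 of 112, and Slc25a1 and Me1 are not among the 2. In males the authors' deposited table holds 0 of 17 such genes from 100 RPKM and 31 of 31 at 10 to 50 RPKM. The highest value in the authors' deposited table for females is 113.8 RPKM, while Scd1 had 6123 RPKM in the old female library.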
